A study of Mus musculus with 8 samples.

Results

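The genes described here are 10 genes of heart muscle: Myh6, Actc1, Tnnt2, Tnni3, Myl7, Myl4, Nppa, Ryr2, Myl3 and Sln. They are expected in mouse lung from the muscle sleeve of its pulmonary veins, but their source in these samples was not tested. They were chosen by symbol out of the 24584 genes of the expression tables, with earlier results of the same comparison known, so their differences between the groups are given as a description and not as a test. Bulk lung RNA was sequenced in 8 samples, 4 of LPS and 4 of LPS + Tan. Mice of the LPS group were wild-type males of the outbred ICR stock, 6 to 8 weeks old, that received 5 mg/kg lipopolysaccharide (LPS, a component of bacterial outer membranes) into the peritoneum, and lungs were taken 12 h later. Mice of the LPS + Tan group received the same LPS dose and, 30 min before it, 50 mg/kg of tangeretin, a flavonoid of citrus peel, by the same route. All 8 samples therefore came from LPS-treated lungs, and no untreated lung was analysed here. The labels number the samples without naming the animals, so any p-value measures only the spread between these samples.

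In mice, heart muscle cells extend from the left atrium along the pulmonary veins into the lung, where they form a striated sleeve around the vein that is coupled electrically to the heart. These cells carry the atrial forms of the contractile proteins. A heart muscle cell shortens when calcium released from its internal store through the ryanodine receptor binds to troponin on the thin actin filament, which frees actin to be pulled by myosin of the thick filament. In a bulk sample, fewer cells of this type and less RNA per cell cannot be told apart.

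The stretches upstream of 4 of these genes are shown because their transcripts followed different patterns between the samples, as described further on: Myl7 moved with most of the others, Nppa swung most, Tnnt2 was the second highest per length and Actc1 went its own way. Each is the 250 bases before the gene start that RefSeq gives on GRCm38.p6, read 5′ to 3′ on the strand of the gene. Capitals mark the short motifs that were searched on both strands: the CArG box bound by serum response factor, the site of the MEF2 factors, GATAA of the GATA factors, CATTCC of the TEAD factors, and the TATA box as TATAAA.
Myl7, chr11:5898783-5899032, minus strand: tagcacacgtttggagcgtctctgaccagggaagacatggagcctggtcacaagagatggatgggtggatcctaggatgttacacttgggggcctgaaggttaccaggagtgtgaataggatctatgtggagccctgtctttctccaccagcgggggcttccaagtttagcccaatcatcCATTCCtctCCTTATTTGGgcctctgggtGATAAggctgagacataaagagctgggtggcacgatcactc
Nppa, chr4:148000472-148000721, plus strand: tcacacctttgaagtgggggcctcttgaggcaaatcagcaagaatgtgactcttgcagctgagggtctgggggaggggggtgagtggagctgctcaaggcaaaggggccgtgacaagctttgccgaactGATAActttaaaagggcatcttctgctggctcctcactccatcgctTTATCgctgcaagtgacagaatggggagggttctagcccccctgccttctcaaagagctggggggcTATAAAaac
Actc1, chr2:114052876-114053125, minus strand: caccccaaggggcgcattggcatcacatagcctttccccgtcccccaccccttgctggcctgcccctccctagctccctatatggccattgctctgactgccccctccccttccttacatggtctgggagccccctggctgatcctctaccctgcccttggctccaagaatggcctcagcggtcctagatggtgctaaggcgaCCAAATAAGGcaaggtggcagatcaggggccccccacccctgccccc
Tnnt2, chr1:135836084-135836333, plus strand: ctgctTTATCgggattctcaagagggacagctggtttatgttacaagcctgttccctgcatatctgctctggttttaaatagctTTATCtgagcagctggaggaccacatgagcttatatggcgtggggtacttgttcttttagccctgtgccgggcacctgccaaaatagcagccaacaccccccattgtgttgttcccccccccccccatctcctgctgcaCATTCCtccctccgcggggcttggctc
The Myl7 stretch held a CArG box 61 to 52 bases before the start, with GATAA 41 to 37 and CATTCC 70 to 65 bases before it. The Actc1 stretch held a CArG box 47 to 38 bases before the start and none of the other motifs. The Nppa stretch held GATAA at 121 to 117 and, reversed, at 75 to 71 bases before the start, and TATAAA at 9 to 4. The Tnnt2 stretch held the reversed GATAA at 245 to 241 and at 166 to 162 bases, and CATTCC at 27 to 22. RefSeq entries were found for 9 of the 10 genes, with 10 promoters because Tnnt2 has more than 1. Of these 10 promoters, 3 held a CArG box (Actc1, Myl3 and Myl7), against 1.47% of 32851 promoters of the same length. GATAA stood in 4 (22.6% of all promoters), CATTCC in 4 (12.6%), TATAAA in 1 (12.4%) and the MEF2 site in 0 (2.92%). A match describes letters only and was not tested as a binding site.

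The sequencing depth was even, with total counts between 38895654 and 39931970, and TMM scaling factors between 0.959 and 1.05. The 10 genes together took 0.0165% to 0.0347% of the counts of a sample. Among the LPS samples the share was 0.0167%, 0.0179%, 0.0165% and 0.0236%. Among the LPS + Tan samples it was 0.0251%, 0.0168%, 0.0347% and 0.0177%. LPS + Tan replicates 3 and 1 were the highest of the 8, whereas LPS + Tan replicates 2 and 4 lay within the range of the LPS samples.

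The transcripts were first compared with the forms of other muscles. Myl7, the atrial regulatory light chain of myosin, had 660 to 1175 reads in the LPS samples and 677 to 1641 in the LPS + Tan samples. Myl2, its ventricular counterpart, had 0 to 4 reads in the LPS samples and 1 to 9 in the LPS + Tan samples. The atrial form was thus present in every sample and the ventricular form was at or near 0. Of the 10 atrial genes listed, 9 had a row in the tables, and Bmp10 was not analysed here. Sbk2 and Kcna5 of that list were low, with mean levels of 0.199 and 0.0645 FPKM (fragments per kilobase of transcript, scaled to the sequencing depth). Myh7, the slow myosin heavy chain that predominates in the ventricle of larger mammals, was present at 442 to 852 reads in the LPS samples and 631 to 1405 in the LPS + Tan samples. Acta1, the actin of skeletal muscle, had 0 to 17 reads and Myh1 and Myh2, its fast myosins, had no more than 0.00365 mean FPKM, whereas Myh4, Myod1 and Myog were not analysed here. Other skeletal muscle genes were detected at low levels, with 18 to 50 reads for Mylpf, a fast skeletal myosin light chain, and 336 to 448 reads per sample for the 19 skeletal muscle genes together. Hey2, a ventricular transcription factor that endothelium also expresses, had 277 to 483 reads. The atrial light chains were thus present in every sample with Myl2, Acta1, Myh1 and Myh2 near 0, while some genes of the ventricular and skeletal lists were measurable. Smooth muscle, the other muscle of the lung, was abundant, with mean levels of 25.7 FPKM for Acta2, 40.7 for Tagln and 9.55 for Myh11, the smooth muscle myosin. Whether the cardiac transcripts came from vein sleeves inside the lung or from atrial tissue attached at dissection was not tested, since both express these genes.

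Levels of different genes were compared per length. The deposited FPKM equal the count divided by a gene length and by the total, which gives the length the authors used. For Myl4, the atrial essential light chain, that length was 16315 bases, 17.3 times the 943 bases of its principal transcript in GENCODE and also longer than the 4637 bases that all its annotated exons cover. Its mean level was 1.61 FPKM as deposited and 27.8 FPKM on the length of the principal transcript. For Sln the length was 520 bases against 1318, and for Tnni3 it was 1637 against 912, so that rescaling moved Sln from 7.77 to 3.07 FPKM and Tnni3 from 6.13 to 11 FPKM. The other 7 genes had lengths between 0.970 and 1.19 times that of the principal transcript. Differences between samples or groups of 1 gene do not depend on this length.

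**Figure D1:**
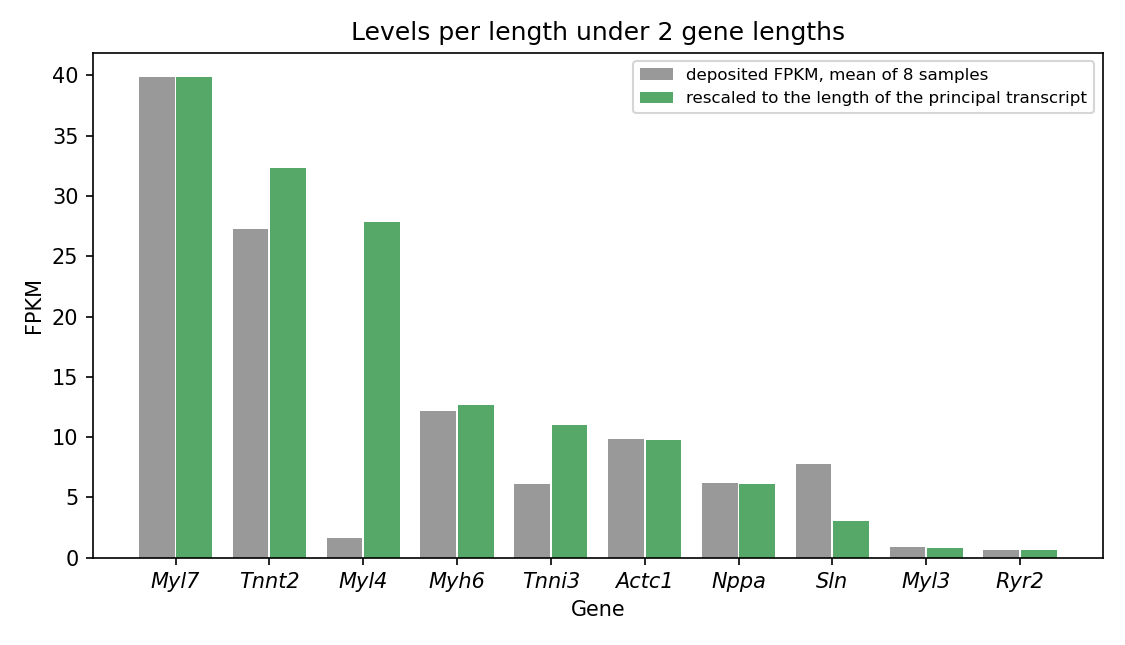
Mean level of each cardiac gene over the 8 samples in FPKM (vertical axis, linear), as deposited (grey bars) and rescaled to the length of the principal GENCODE transcript (green bars), in the order of the rescaled level. Myl4 stands at 1.61 FPKM in the first scale and at 27.8 in the second, next to Myl7 at 39.9 and Tnnt2 at 32.3.

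On the length of the principal transcript, the order of the levels was Myl7 (39.9 FPKM, 28.4 to 71.2 over the 8 samples), Tnnt2 (32.3, 22.5 to 46.6), Myl4 (27.8, 20.1 to 41.2), Myh6 (12.6, 8.46 to 21.2), Tnni3 (11, 6.57 to 16.2), Actc1 (9.79, 5.37 to 16.6), Nppa (6.12, 0.738 to 19.5), Sln (3.07, 1.41 to 6.08), Myl3 (0.826, 0.514 to 1.45) and Ryr2 (0.635, 0.251 to 1.06). The ranges of every neighbouring pair in this order overlapped. On this length, the atrial light chains Myl7 and Myl4 lay above the heavy chain Myh6. Myl3, the essential light chain of ventricular and slow muscle, lay far below Myl4. In each sample, Myl3 had 0.0171 to 0.0524 reads for every Myl4 read. As deposited, Myl4 stood at 1.61 FPKM, below Myh6 at 12.2 and above Myl3 at 0.852. Reads from outside the principal transcript would raise the rescaled level of Myl4 and lower the ratio of Myl3 to Myl4. Whether Myl4 held such reads was not tested.

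**Figure D2:**
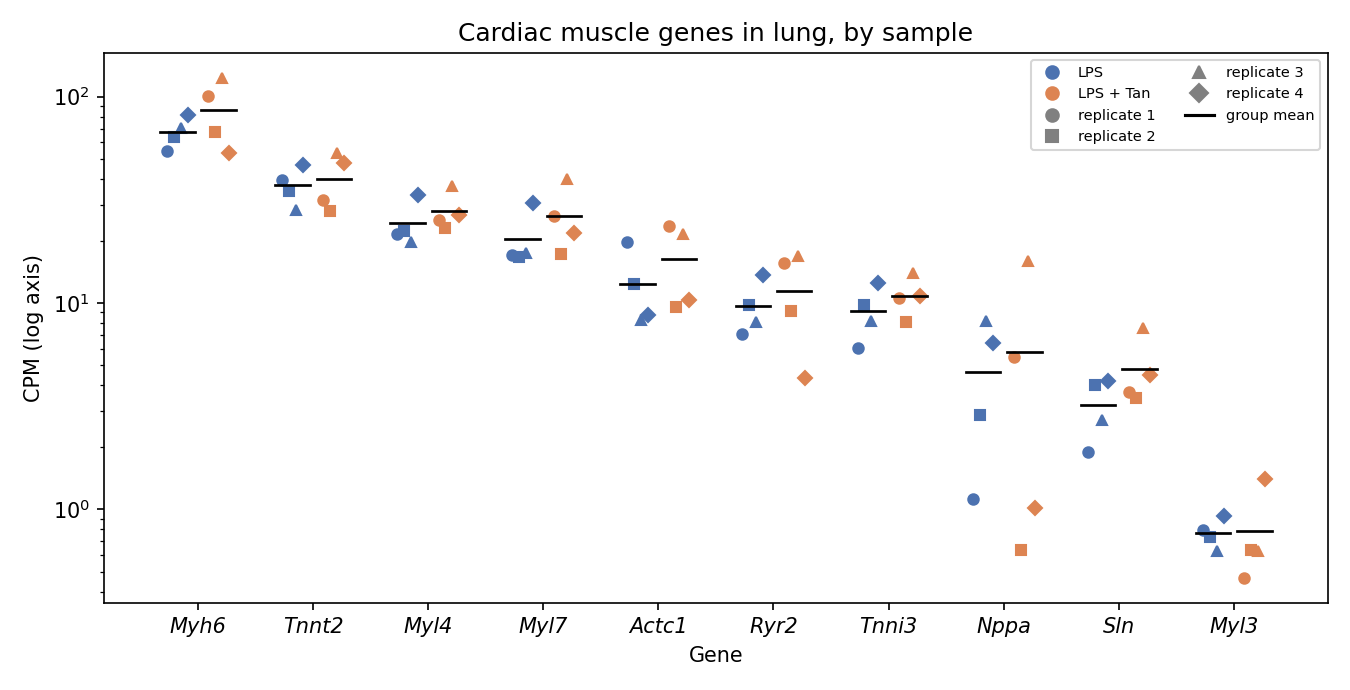
CPM (read counts scaled to a common depth with TMM factors; vertical log axis) of each cardiac gene in each sample, with LPS in blue, LPS + Tan in orange, the replicate given by the marker and the group mean by a black line. The groups overlap for every gene, and LPS + Tan replicate 3 (triangle) is the highest of the 8 samples for Myh6, Tnnt2, Myl4, Myl7, Ryr2, Tnni3, Nppa and Sln.

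The thick filament genes were followed in CPM, which compare samples but not genes. Myh6, the fast alpha myosin heavy chain of atrial and adult mouse ventricular muscle (chr14:54941921-54966927, minus strand, GRCm38), stood at 54.5, 63.4, 70.7 and 81.2 CPM in LPS replicates 1 to 4 and at 100.6, 67.2, 123 and 53.3 CPM in LPS + Tan replicates 1 to 4. The LPS + Tan samples thus held both the 2 highest values and the lowest value, and their SD (31.7 CPM around a mean of 86.0) was larger than that of the LPS samples (11.3 around 67.4). Myl7 (chr11:5896637-5898782, minus strand) stood at 17.1, 16.7, 17.5 and 30.4 CPM in LPS and at 26.4, 17.2, 39.9 and 21.7 CPM in LPS + Tan. In LPS, 3 samples were close together and replicate 4 stood apart at a level that only LPS + Tan replicate 3 exceeded. Myl4 (chr11:104550663-104595753, plus strand) followed Myl7, from 19.8 to 33.3 CPM in LPS and from 23.0 to 36.9 CPM in LPS + Tan. Myl3 (chr9:110741861-110769798, plus strand) rested on 19 to 54 reads per sample, with 0.793, 0.734, 0.627 and 0.933 CPM in LPS and 0.467, 0.635, 0.632 and 1.40 CPM in LPS + Tan. Its highest value came from LPS + Tan replicate 4, the sample that was lowest for Myh6. Reads of Myl3 cannot be separated here from those of Pth1r, which overlaps it on the other strand, because no source used here states the strand used in counting.

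The thin filament genes showed a different order of the samples. Tnnt2, cardiac troponin T, which anchors the troponin complex to tropomyosin (chr1:135836354-135852260, plus strand), stood at 39.6, 35.0, 28.2 and 46.8 CPM in LPS and at 31.6, 27.8, 53.1 and 47.7 CPM in LPS + Tan. Tnni3, cardiac troponin I, the inhibitory subunit of that complex (chr7:4518305-4524229, minus strand), ranged from 6.08 to 12.4 CPM in LPS and from 8.06 to 14 CPM in LPS + Tan. Both were highest in LPS replicate 4 and LPS + Tan replicate 3 of their groups, whereas LPS + Tan replicate 1, the second highest of all for Myh6, lay below its group mean for both. Dnaaf3 overlaps Tnni3 on the same strand, so a part of its reads could be shared. Actc1, cardiac alpha-actin (chr2:114047282-114053548, minus strand), stood at 19.8, 12.4, 8.26 and 8.76 CPM in LPS and at 23.7, 9.53, 21.6 and 10.3 CPM in LPS + Tan. Here LPS replicate 1, the lowest LPS sample for Myh6, Tnni3, Nppa, Ryr2 and Sln, was the highest of its group, and LPS replicate 4, the highest of its group for those genes other than Nppa, lay below its group mean.

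Calcium release and uptake were represented by Ryr2 and Sln. Ryr2, the ryanodine receptor that releases calcium from the sarcoplasmic reticulum (chr13:11553102-12106945, minus strand), stood at 7.08, 9.82, 8.05 and 13.7 CPM in LPS and at 15.5, 9.18, 16.9 and 4.34 CPM in LPS + Tan. Like Myh6, it had the 2 highest values and the lowest value in LPS + Tan. Sln, sarcolipin, a small inhibitor of the SERCA calcium pump in atrial muscle (chr9:53850164-53854560, plus strand), stood at 1.89, 4.0, 2.72 and 4.2 CPM in LPS and at 3.71, 3.46, 7.60 and 4.47 CPM in LPS + Tan. LPS + Tan replicates 3 and 4 lay above all 4 LPS samples, and the other two lay among them.

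Nppa, the precursor of the atrial natriuretic peptide that atrial muscle releases when stretched (chr4:148000722-148002079, plus strand), varied most. It stood at 1.13, 2.86, 8.20 and 6.40 CPM in LPS (44, 113, 314 and 247 reads) and at 5.48, 0.635, 16.0 and 1.01 CPM in LPS + Tan (223, 25, 659 and 39 reads). The highest and the lowest sample were both LPS + Tan and differed 25.2-fold, whereas the other 9 genes differed 1.86-fold to 4.02-fold between their highest and lowest samples. The SD of its log2 CPM within the groups was 1.74, at percentile 99.8 of the 15706 genes tested, where the median gene had 0.210. All 10 genes had an SD above that median, from percentile 69.4 (Myl4) upwards. For every read of Myh6, Nppa had 0.00945 to 0.130 reads, a 13.8-fold range, so that its swing was larger than that of the muscle's myosin. In comparison, the ratio of Myl7 to Myl4 stayed between 0.745 and 1.08, a 1.45-fold range.

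LPS + Tan was compared with LPS, which in the study serves to find what tangeretin changes in the injured lung. None of the 10 genes passed the thresholds of the study for differentially expressed genes (DEGs, a change of more than 1 on the log2 scale in either direction with an unadjusted p below 0.05), which 0.649% of the 15706 tested genes passed. None had an unadjusted p below 0.05 in edgeR's quasi-likelihood test in either direction, against 2.87% of all tested genes for higher and 2.25% for lower levels in LPS + Tan. Leaving out LPS replicate 4 brought Myl7 and Myl4 past that threshold, at log2 fold changes of 0.62 and 0.40, and leaving out LPS + Tan replicate 4 brought Myh6 past it, at 0.52. At an adjusted p below 0.05 the percentage called over all genes was 0, and 0 of the 10 genes had groups that did not overlap, against 2.73% of all genes. All 10 fitted log2 fold changes were above 0, with a median of 0.29, beside a median of 0.01 over all tested genes, of which 51.8% were above 0. The values ran from 0.02 ± 0.37 (SE, n = 4 per group) for Myl3 to 0.59 ± 0.32 for Sln. Between them lay Actc1 at 0.40 ± 0.36, Myl7 at 0.37 ± 0.27, Myh6 at 0.35 ± 0.24, Nppa at 0.32 ± 0.89, Tnni3 at 0.25 ± 0.23, Ryr2 at 0.25 ± 0.37, Myl4 at 0.21 ± 0.19 and Tnnt2 at 0.10 ± 0.22. The 95% interval of each included 0, and the interval of Nppa, from −1.67 to 2.31, included a 2-fold change in both directions. Most of the genes were high in the same samples, so the common sign does not count as 10 separate results. The median was 0.10 without LPS + Tan replicate 3, 0.14 without LPS replicate 1, 0.45 without LPS replicate 4 and 0.48 without LPS + Tan replicate 4. Without LPS + Tan replicate 3, the value was −0.97 for Nppa, −0.07 for Tnnt2, −2.9e-06 for Ryr2, 0.04 for Myl4, 0.09 for Myl7, 0.10 for Tnni3, 0.12 for Myh6, 0.23 for Actc1 and 0.27 for Sln. With each sample left out in turn, Actc1 ran from 0.16 (without LPS + Tan replicate 1) to 0.73 (without LPS replicate 1), Myl7 up to 0.62, Tnni3 up to 0.44 and Myl4 up to 0.40 (each without LPS replicate 4), and Myh6 up to 0.52 (without LPS + Tan replicate 4). Tnni3 was at 0.10 without LPS replicate 1 also, and Myl4 at 0.12 without LPS replicate 3.

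**Figure D3:**
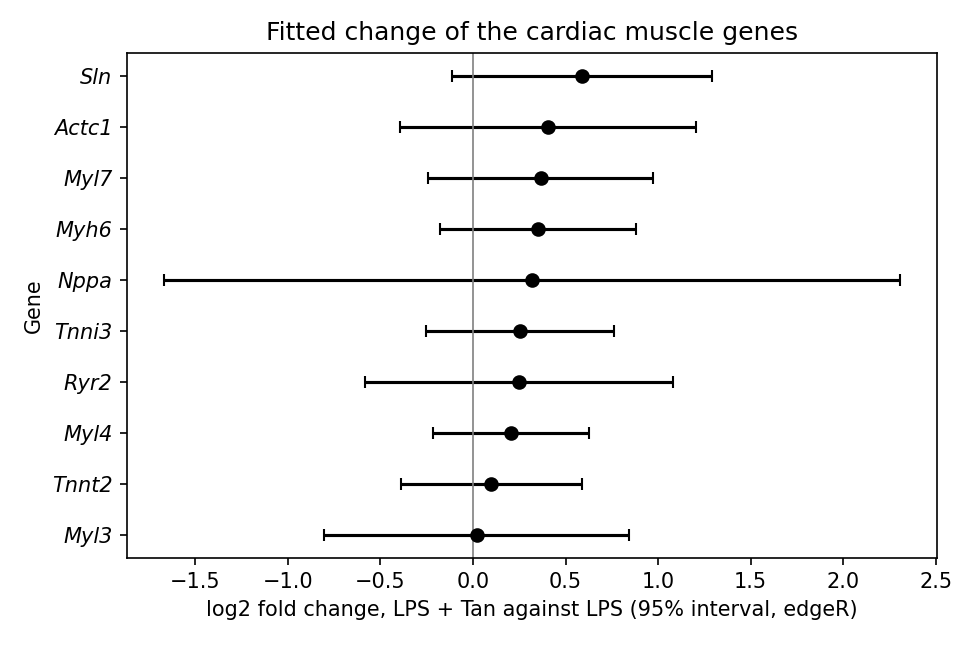
Fitted log2 fold change of each cardiac gene in LPS + Tan against LPS (horizontal axis; points, edgeR) with its 95% interval (bars), n = 4 per group. All points lie right of 0, from 0.02 for Myl3 to 0.59 for Sln, and all intervals include 0.

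The genes were then compared with each other across the samples, after the mean of each group had been subtracted from the log2 CPM. How far dissection and RNA preparation differed between the samples was not tested, so the correlations over the 8 samples describe these libraries only. Of the 45 pairs of genes, 25 had a Pearson's r above 0.5 and 7 were below 0, with a median of 0.57. The median was 0.33 without LPS + Tan replicate 3 and 0.51 to 0.67 with each of the other samples left out. Myl7 had the highest mean r with the other 9 (0.631). The closest pairs were Myh6 with Ryr2 (r = 0.933), Tnni3 with Sln (0.933), Myl7 with Myl4 (0.931) and Myh6 with Nppa (0.914). Tnnt2 followed Myl4 (0.83) but not Ryr2 (0.0505) or Myh6 (0.17). Actc1 exceeded 0.5 with 0 of the other 9 genes and Myl3 with 1, and the mean r of Myl3 was −0.124. Counting error is largest for Myl3, with at most 54 reads per sample.

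**Figure D4:**
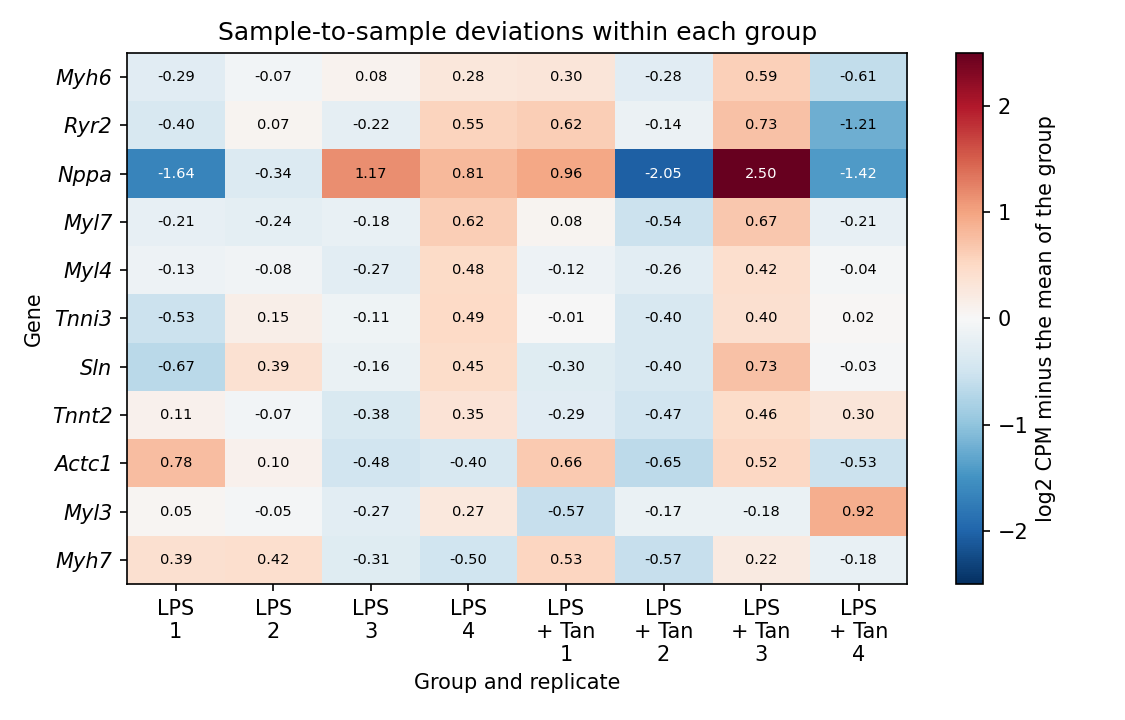
Deviation of each sample from the mean of its group in log2 CPM (colour and printed value) for the 10 cardiac genes and Myh7, with samples in columns and genes in rows. LPS replicate 4 and LPS + Tan replicate 3 are above their group mean for Myh6, Ryr2, Nppa, Myl7, Myl4, Tnni3, Sln and Tnnt2, whereas Actc1 and Myh7 are above it in LPS replicates 1 and 2 and LPS + Tan replicates 1 and 3.

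Actc1 followed another set of genes. Its r with Myh7 was 0.897, whereas Myh7 reached only 0.207 with Myh6, its neighbour on chromosome 14. With the 6 of the 12 listed smooth muscle genes that were examined, the r of Actc1 was 0.963 for Acta2 (smooth muscle alpha-actin), 0.959 for Myl9 (a smooth muscle regulatory light chain), 0.911 for Actg2 (smooth muscle gamma-actin), 0.900 for Cnn1 (calponin), 0.853 for Myh11 and 0.771 for Tagln. The values of Myh7 were 0.945 for Cnn1, 0.941 for Acta2, 0.913 for Actg2, 0.856 for Myl9, 0.750 for Myh11 and 0.642 for Tagln. With Jph2, a junctophilin of the heart muscle calcium list, the r was 0.961 for Actc1, 0.886 for Myh7 and 0.208 for Myh6. The smooth muscle values of Myh6 were 0.496 for Myh11, 0.241 for Myl9, 0.185 for Actg2, 0.152 for Acta2, 0.0962 for Tagln and 0.0363 for Cnn1. Actc1 and Acta2 are paralogs with nearly identical coding sequences, and no source used here states how such reads were divided in counting, so the level of Actc1 is uncertain. These partners were chosen after the deviations of Actc1 had been seen. The 12 genes of the smooth muscle list were also set against the average of the 10 cardiac genes, without subtraction of the group means. Their median r was 0.328, and 3 of them were above 0.5.

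**Figure D5:**
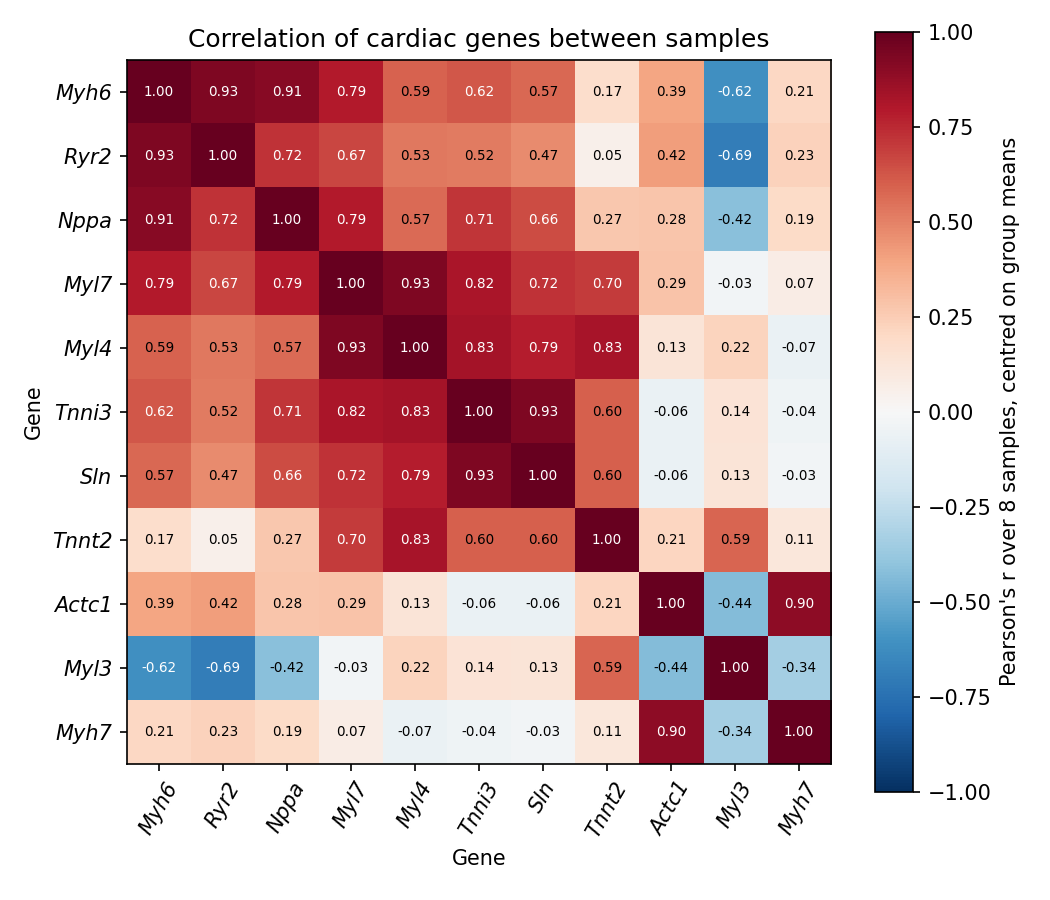
Pearson's r between the log2 CPM of each pair of genes over the 8 samples, centred on the group means (colour and printed value; rows and columns are the 10 cardiac genes and Myh7). Myh6, Ryr2, Nppa, Myl7, Myl4, Tnni3 and Sln form a block of positive values, Actc1 is close only to Myh7 (0.90), and Myl3 is negative with Ryr2 (−0.69) and Myh6 (−0.62).

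Other genes of the heart muscle sarcomere were read from a list of 26, of which 24 passed the filter on low counts. Of these, 23 had a log2 fold change above 0 (median 0.44), 2 had an unadjusted p below 0.05, both higher in LPS + Tan (2.87% of all tested genes), and 1 was a DEG (0.649% of all). That was Csrp3, a LIM protein of the Z-disc, with 2.56, 3.29, 2.53 and 3.91 CPM in LPS and 7.30, 3.38, 9.26 and 4.70 CPM in LPS + Tan, a log2 fold change of 1.0 ± 0.30. Its groups overlapped through LPS + Tan replicate 2, and its adjusted p was 0.924 (edgeR quasi-likelihood test, Benjamini-Hochberg over all genes). The value lay at the DEG threshold and the call held under upper-quartile scaling (1.01) but ended under RLE scaling (0.998), DESeq2 (0.998), both other count filters, limma-voom, the replicate block and both FPKM fits, where it was 0.79 at the lowest. It also ended without LPS + Tan replicate 3 (0.74) and without LPS replicate 1, LPS replicate 3 or LPS + Tan replicate 1 (0.91 to 0.92). The other was Ldb3, a PDZ-LIM protein of the Z-disc, at 0.67 ± 0.27 with the same adjusted p of 0.924. Its unadjusted p rose to between 0.0705 and 0.102 without LPS replicate 2 or 3 or without LPS + Tan replicate 1 or 3 (edgeR). The list median fell to 0.13 without LPS + Tan replicate 3. The most abundant genes of the list, Nebl at 16.4 mean FPKM and Ankrd1 at 13.8, had log2 fold changes of 0.06 ± 0.09 and 0.31 ± 0.25. Tnnc1, the calcium-binding troponin subunit, was at 0.32 ± 0.19, and Ttn, the giant elastic filament titin, at 0.46 ± 0.27.

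Of 17 tested genes of calcium handling and excitation, 14 were above 0, with a median of 0.16. Only Rrad, a small GTPase that restrains calcium channels, had an unadjusted p below 0.05 and higher levels in LPS + Tan (1 of 17, against 2.87% of all tested genes), at 0.64 ± 0.24 with an adjusted p of 0.924 in edgeR. Its unadjusted p was 0.0516 to 0.0833 without LPS replicate 3 or 4 or without LPS + Tan replicate 1 or 3. The list median was 0.07 without LPS + Tan replicate 1. Pln, phospholamban, which like Sln inhibits SERCA, was at 0.59 ± 0.40, and Atp2a2, the SERCA pump itself, which many other cells also express, was at 0.13 ± 0.12. S100a1, a calcium-binding protein, was at 0.11 ± 0.14. In energy metabolism, 9 of 10 genes were above 0, with a median of 0.28, which was 0.07 without LPS + Tan replicate 3. Ckmt2, the creatine kinase of striated muscle mitochondria, was the only gene of this list with an unadjusted p below 0.05 (1 of 10, against the same 2.87%), at 0.57 ± 0.19 (adjusted p = 0.924, edgeR). Its LPS samples were close together, from 3.81 to 4.18 CPM, and all 4 LPS + Tan samples lay above them, from 4.42 to 8.19 CPM. Its groups thus did not overlap (1 of 10, against 2.73% of all tested genes). Its unadjusted p stayed below 0.05 with each sample left out, from 0.00376 to 0.0457, and its log2 fold change was 0.37 without LPS + Tan replicate 3. Mb, the oxygen store myoglobin, was at 0.21 ± 0.39, and Ldhb, a lactate dehydrogenase subunit that most lung cells also express, at −0.01 ± 0.10.

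Of 18 transcription factors and cofactors of heart muscle, 13 were tested, 10 were above 0 and the median was 0.10, with 0.04 without LPS + Tan replicate 3 and 0.18 without LPS + Tan replicate 4. Tbx3, a T-box repressor of the conduction system that lung mesenchyme also expresses, had an unadjusted p below 0.05 (1 of 13, against 2.87% of all tested genes) at 0.51 ± 0.22 (adjusted p = 0.924, edgeR), with LPS + Tan replicate 1 the highest at 195.7 CPM. Without that sample the log2 fold change was 0.31 and the unadjusted p 0.135, and that p was 0.108 without LPS replicate 2, 0.0994 without LPS replicate 3 and 0.0659 without LPS + Tan replicate 3. Mef2a, an activator of muscle genes, was at 0.02 ± 0.09. Nkx2-5, the homeobox factor of heart muscle, had a mean of only 0.0655 CPM, under the filter.

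The natriuretic system around Nppa was read next. Of 6 tested genes, Nppa included, 4 were above 0 and 2 below (median 0.26), and the median was 0.0018 without LPS + Tan replicate 3, 0.17 without LPS replicate 1 and 0.06 to 0.13 in the limma and replicate block fits. Nppb, the second cardiac natriuretic peptide, had 1 to 7 reads in LPS and 0 to 13 in LPS + Tan and was not tested. Corin, the protease that cleaves the atrial peptide precursor, was at 0.36 ± 0.29, and Npr1, the receptor for this peptide, at 0.21 ± 0.14. Npr2, the receptor for the C-type peptide, stood at 29.7, 24.7, 24.9 and 22.7 CPM in LPS and at 33.1, 35.8, 31.3 and 34.2 CPM in LPS + Tan. Its groups did not overlap (2.73% of all tested genes), with a log2 fold change of 0.40 ± 0.10 and an adjusted p of 0.850 (edgeR), and its unadjusted p was at most 0.00836 with each sample left out. Npr3, the clearance receptor, which removes natriuretic peptides from the circulation, stood at 139, 194.9, 201.5 and 194.1 CPM in LPS and at 71.3, 221, 103 and 241 CPM in LPS + Tan, a log2 fold change of −0.20 ± 0.34. LPS + Tan replicates 1 and 3, the highest of that group for Nppa, were the lowest of all 8 samples for Npr3. In LPS the order was the opposite, with replicate 1 the lowest and replicate 3 the highest for both genes.

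Of 4 tested genes of the ventricular list, Myl3 of the 10 included, 3 were above 0, with a median of 0.29. That median ran from 0.16 to 0.42 over the samples left out and was 0.56 with DESeq2 and with both other count filters. Of the 3 that are not among the 10, 2 were above 0 (median 0.57), with Hey2 at −0.17 ± 0.20 and Myh7 at 0.57 ± 0.27. Of 8 tested genes of the atrial list, 5 of them among the 10, 6 were above 0 (median 0.34, from 0.07 to 0.48). Of the 3 that are not among the 10, only 1 was above 0, and their median was −0.12.

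Markers of other tissues were read beside these values. Of the skeletal muscle genes, 9 of the 19 in the tables passed the filter and 8 of these 9 had a log2 fold change below 0 (median −0.18), with Mybpc2 at −0.03 ± 0.26 and Mylpf at 0.01 ± 0.36. The lowest was Actn3, a fast skeletal actinin named after its values were seen, at −0.70 ± 0.39. Its groups did not overlap (1 of 9, against 2.73% of all tested genes), with 0.304 to 0.358 CPM in LPS and 0.123 to 0.280 CPM in LPS + Tan. The median was −0.38 without LPS + Tan replicate 3, −0.32 without LPS replicate 3 and −0.08 without LPS + Tan replicate 4, and with other filters or fits it ran to −0.0053 on the log2(FPKM + 1) scale. Their summed level was 3.35 to 6.25 FPKM in LPS and 3.62 to 5.16 FPKM in LPS + Tan. Of the 12 smooth muscle genes, 8 were above 0 (median 0.08) and 0 had an unadjusted p below 0.05, with the median between −0.06 and 0.19 over the samples left out. Their summed level was 121 to 211 FPKM in LPS and 145 to 214 FPKM in LPS + Tan, with Acta2 at 0.08 ± 0.18, Tagln at 0.08 ± 0.17 and Myh11 at 0.06 ± 0.22. The part of smooth muscle in the values of Actc1 and Myh7 was not tested.

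Finally, the genes most like the 10 were sought among 13727 other tested genes with a mean of at least 1 CPM. Pearson's r over the 8 samples with the mean log2 CPM of the 10 was used, without subtraction of the group means. The highest were Myom2 (r = 0.971), Acap3 (0.950), Eno3 (0.946), Uty (0.939), Mylk3 (0.932), Map4k2 (0.929), Myoz2 (0.928), Anln (0.905), Cmya5 (0.902) and Zfp442 (0.901). Myom2 (an M-band protein), Mylk3 (the cardiac kinase of myosin light chains), Myoz2 (a Z-disc protein), Cmya5 (a protein of striated muscle) and Eno3 (the muscle enolase) belong to the lists of heart muscle genes. The other 5 belong to none of the lists. With so few samples, 1594 of the 13727 genes had an r above 0.5, and the median over all of them was 0.01. In the sarcomere list the median r was 0.809, with 17 of 21 genes above 0.5, in the energy list 0.703 with 7 of 10, in the calcium list 0.465 with 5 of 15, and in the list of transcription factors 0.154 with 2 of 10.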

How the data were processed

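Lung RNA was sequenced in 8 samples. The authors deposited a table of read counts per gene and a table of FPKM. The labels name the build GRCm38 (mm10). Aligner, counter and annotation were not given in the sources used here, while labels and methods name different RNA and library kits. Counts were tested in R 4.3.3 with edgeR 4.0.16 (filterByExpr, TMM scaling, quasi-likelihood test, group as the only term) on the whole table, with Benjamini-Hochberg adjustment over the 15706 tested genes. CPM used TMM-scaled totals, and log2 CPM a prior count of 2. Levels per length used the deposited FPKM, with transcript lengths and gene coordinates from GENCODE M21 (GRCm38). The members and lists were chosen with earlier results of these data known. Genes were named by rule: the members, the genes of each list with an unadjusted p below 0.05 or the 2 highest mean FPKM, a few contractile forms and the 10 genes most like the members, and some further list genes chosen after their values were seen. The alternatives used DESeq2 1.42.0, 2 other scalings (RLE, upper quartile), other filters, limma 3.58.1 on voom or log2 FPKM values, a replicate block and each sample left out.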

Additional observations from a re-analysis of the deposited data

Results flagged for a closer look

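The value of Myl7 in LPS replicate 4 stood apart from the other LPS samples, at 4.93 on the log2 CPM scale with the next sample at 4.13, and this gap made up 0.928 of the range of the group. LPS replicate 1 stood apart in the log2 ratio of Tnnt2 to Tnni3 reads, at 2.70 with the next sample at 1.91, a gap of 0.864 of the range. Both gaps exceeded Dixon's critical value for 4 samples. In all, 68 groups of 4 values were examined, in which chance alone gives about 3.4 such values.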

How the results depend on the processing

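None of the 10 cardiac genes passed the DEG thresholds or an adjusted p below 0.05 under any of 17 alternatives, and their median log2 fold change stayed above 0. Nppa was reversed with limma-voom (−0.35), limma on log2(FPKM + 1) (−0.13) and log2(FPKM + 0.1) (−0.32), and the replicate block (−0.29), and Myl3 likewise (−0.098, −0.00086, −0.037 and −0.073, in the same order). With each sample left out, the ranges were −0.97 to 0.74 for Nppa, −0.41 to 0.20 for Myl3, −0.068 to 0.24 for Tnnt2 and −2.9e-06 to 0.52 for Ryr2. The cause was not tested. Over all genes, DEGs higher and lower in LPS + Tan numbered 55 and 47 in the main edgeR fit. They were 113 and 111 with DESeq2, 220 and 198 with no count filter, 18 and 23 when 4 samples had to reach 1 CPM, 5 and 8 with log2(FPKM + 1), 18 and 19 with log2(FPKM + 0.1), and 37 to 113 and 38 to 125 with each sample left out. Genes at an adjusted p below 0.05 numbered 0 in the main edgeR fit, 35 with DESeq2 and 0 to 1 with each sample left out. The thymocyte list median was −0.03 in the main edgeR fit and −0.19 to 0.21 with each sample left out. It was −0.44 with DESeq2 and with no filter, and −0.43 at 1 CPM, with fewer or more genes tested. Myl3 and Adrb3 gave no value at 1 CPM. Samples with the same number did not deviate together (r of 0.123, −0.0306, −0.148 and 0.0195), so the numbers were not taken as pairs.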

Other observations

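Other cells that a lung sample could hold were read for comparison. Of 6 genes of the mesothelium, the covering of lung and heart, 3 were higher and 3 lower in LPS + Tan (median log2 fold change 0.04), with Krt19 at 0.23 ± 0.12 and Msln at −0.10 ± 0.17. That median was 0.25 without LPS replicate 1, 0.19 without LPS + Tan replicate 2, 0.09 without LPS + Tan replicate 3, 0.0042 and 0.0052 without replicate 4 of LPS and of LPS + Tan, and −0.06 to −0.05 without LPS replicate 2 or 3 or LPS + Tan replicate 1. Of 6 tested fat genes, 5 were above 0, with a median of 0.29, beside 0.29 for the 10 cardiac genes. The fat median was 0.79 without LPS replicate 1, 0.11 and 0.14 without LPS replicates 2 and 3, 0.51 and 0.46 without LPS + Tan replicates 2 and 4, −0.09 without LPS + Tan replicate 3 and −0.12 with at least 1 CPM in 4 samples. Adrb3, the beta-3 adrenergic receptor, passed the DEG thresholds (1 of 6, against 0.649% of all tested genes) at 1.88 ± 0.71. It had few reads, from 0.0518 to 0.409 CPM in LPS and from 0.102 to 1.03 CPM in LPS + Tan (adjusted p = 0.924, edgeR). Its unadjusted p was 0.0518 to 0.0645 without LPS replicate 2, 3 or 4 or without LPS + Tan replicate 1 or 4, which ended that call. It also ended with limma-voom (1.77, unadjusted p = 0.0673) and with limma on log2(FPKM + 0.1) (0.98) and log2(FPKM + 1) (0.22). Cidec and Cidea, lipid droplet proteins of fat, stood at −0.29 ± 0.29 and 0.06 ± 0.34. Of 4 tested thymocyte genes, 2 were above 0, with Cd8b1 at −0.43 ± 0.43 and Cd4 at 0.37 ± 0.42. Of 8 lung markers, 4 were above 0 (median −0.01, from −0.14 to 0.06 over the samples left out), with Scgb1a1 of club cells at −0.17 ± 0.18 and Sftpc of alveolar type II cells at 0.10 ± 0.24.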
